A study of Homo sapiens with 8 samples.

Results

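The 35 genes described here are the transcripts of the unfolded protein response and the amino acid response, read in CHP212 cells, an established human neuroblastoma line. They were taken by name from the deposited tables, which list 25369 genes, and all 35 were found and had enough reads to be tested among 15879 tested genes. The study sequenced poly(A) RNA from 4 groups of CHP212 cells with 2 independent biological replicates each. They were FAM193A knockout (KO) cells given 10 uM Nutlin-3a for 12 h, KO cells given 0.2% DMSO for 12 h, wild-type (WT) cells given 10 uM Nutlin-3a and WT cells given 0.2% DMSO for the same time. Nutlin-3a blocks the binding of MDM2 to p53 and so stabilises p53, and DMSO is its solvent. Only 1 KO population is named in the labels. Loss of FAM193A and any other property of those cells cannot be told apart, and p values between genotypes measure the spread between replicates of the same cells.

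When misfolded proteins collect in the endoplasmic reticulum (ER), 3 membrane sensors respond. PERK (gene EIF2AK3) phosphorylates the initiation factor eIF2, which slows translation while favouring that of ATF4, a transcription factor for amino acid synthesis, amino acid import and feedback genes. The same ATF4 arm is reached from amino acid shortage through another eIF2 kinase. IRE1 (gene ERN1), which splices XBP1 RNA, and ATF6 drive a chaperone arm of ER folding and degradation genes, and neuroblastoma arises from a lineage that stores and secretes catecholamines. The genes were split by these textbook roles into 18 of the ATF4 arm, 4 sensors with XBP1, and 13 of the chaperone arm.

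Library totals ran from 28390405 to 38010075 reads, and the 35 genes took 0.652% to 0.804% of them. The knocked-out gene, FAM193A, was still read in KO cells, with 42.0 and 38.1 CPM (reads scaled to library size, not to gene length) in KO Nutlin-3a, 34.8 and 32.2 CPM in KO DMSO, 50.4 and 44.5 CPM in WT Nutlin-3a and 44.1 and 40.0 CPM in WT DMSO cells. Under DMSO its log2 fold change, KO against WT, was -0.33 (SE 0.08, adjusted p = 0.000999). The sources used here do not give the edit. MDM2, a p53 target, rose with Nutlin-3a by 3.38 on the log2 scale in KO cells (SE 0.05) and by 4.61 in WT cells (SE 0.06). CDKN1A, another p53 target, rose by 5.12 in KO cells (SE 0.06) and by 5.39 in WT cells (SE 0.06). The difference of responses, KO minus WT, was -1.23 for MDM2 (SE 0.07) and -0.27 for CDKN1A (SE 0.07). Of 10 neuroblastoma markers, 10 were above 1 RPKM (reads per kilobase of gene, scaled to library size) in KO and 9 in WT groups, with a summed level of 1583 to 1674 RPKM in KO Nutlin-3a, 1787 to 1814 RPKM in KO DMSO, 1268 to 1317 RPKM in WT Nutlin-3a and 1905 to 1927 RPKM in WT DMSO libraries. TH on that list, the first enzyme of catecholamine synthesis, averaged 6.86 RPKM in KO Nutlin-3a, 5.47 RPKM in KO DMSO, 121 RPKM in WT Nutlin-3a and 243 RPKM in WT DMSO cells, a lower level in KO cells. None of 10 blood cell and none of 7 endothelial markers was above 1 RPKM, and 1 of 7 melanoma markers was, with sums of at most 1.67 RPKM for blood cell, 1.45 RPKM for endothelial and 3.37 RPKM for melanoma markers. Of 9 fibroblast markers 6 or 7 were above 1 RPKM, with sums of 1353 to 1419 RPKM in KO Nutlin-3a, 1342 to 1385 RPKM in KO DMSO, 1185 to 1187 RPKM in WT Nutlin-3a and 1132 to 1144 RPKM in WT DMSO libraries. Of 10 epithelial markers 3 to 5 were above 1 RPKM. Their sum was 137 to 143 RPKM in KO Nutlin-3a, 151 to 165 RPKM in KO DMSO, 473 to 493 RPKM in WT Nutlin-3a and 376 to 381 RPKM in WT DMSO libraries, thus lower in KO cells. The part of these marker differences in the results between genotypes was not tested. In 4 libraries some genes were more than 10-fold over the other replicate with 20 or more reads, namely 18 genes in KO Nutlin-3a replicate 2, 44 in WT Nutlin-3a replicate 1, 2 in WT DMSO replicate 1 and 22 in WT DMSO replicate 2. None of the 35 genes was among them. The libraries with 18, 44 and 22 such genes were also left out together. Values with these 3 libraries out are given where they change a call that no single library changed. That fit has 2 libraries only in KO DMSO, whose spread stands for all 4 groups. Leaving out 1 library likewise leaves its group without a spread of its own. The chi-square of counts between replicates averaged 8.77 per gene in WT Nutlin-3a and 2.34 to 3.95 in the other groups. A call gained without a WT Nutlin-3a library, or with the 3 out, is therefore not a firmer result.

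Upstream sequences of 7 of the genes are shown because they carry the letters known as binding elements of the factors that define the arms. CANX among these genes had no called response in either genotype. The sequences are the 250 bases before the transcript start in the RefSeq promoter table (GRCh38.p14), written along the gene, with the matched elements in capitals. The counts were made on another build (GRCh37), so no position was carried over.
HSPA5 (chr9:125241344-125241593, minus strand): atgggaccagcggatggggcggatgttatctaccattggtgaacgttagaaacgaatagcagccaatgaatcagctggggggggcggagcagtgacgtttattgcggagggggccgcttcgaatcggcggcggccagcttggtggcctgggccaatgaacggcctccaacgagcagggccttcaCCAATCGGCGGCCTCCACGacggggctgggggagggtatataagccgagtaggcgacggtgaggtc
HSP90B1 (chr12:103930160-103930409, plus strand): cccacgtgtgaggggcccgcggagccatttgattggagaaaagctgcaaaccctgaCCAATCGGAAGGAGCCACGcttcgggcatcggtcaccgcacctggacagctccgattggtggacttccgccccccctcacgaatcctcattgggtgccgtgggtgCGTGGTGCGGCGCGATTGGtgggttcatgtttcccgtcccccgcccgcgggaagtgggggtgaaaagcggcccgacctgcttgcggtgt
CALR (chr19:12938359-12938608, plus strand): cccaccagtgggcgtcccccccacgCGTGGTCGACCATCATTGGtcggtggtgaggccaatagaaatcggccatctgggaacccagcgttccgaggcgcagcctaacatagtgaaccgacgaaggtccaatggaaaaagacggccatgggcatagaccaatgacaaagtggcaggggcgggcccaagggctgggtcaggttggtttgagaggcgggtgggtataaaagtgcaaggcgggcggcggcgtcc
CANX (chr5:179698679-179698928, plus strand): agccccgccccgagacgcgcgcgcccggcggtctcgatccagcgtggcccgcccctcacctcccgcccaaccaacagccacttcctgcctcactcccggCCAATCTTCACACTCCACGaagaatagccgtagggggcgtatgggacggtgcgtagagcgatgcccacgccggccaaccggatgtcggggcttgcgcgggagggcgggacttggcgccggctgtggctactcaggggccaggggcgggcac
HERPUD1 (chr16:56931892-56932141, plus strand): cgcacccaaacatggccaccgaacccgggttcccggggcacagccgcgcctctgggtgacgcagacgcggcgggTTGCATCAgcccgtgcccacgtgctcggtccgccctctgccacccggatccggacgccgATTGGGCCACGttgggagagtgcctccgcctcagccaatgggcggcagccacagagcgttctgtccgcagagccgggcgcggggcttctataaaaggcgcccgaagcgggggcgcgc
ASNS (chr7:97872409-97872658, minus strand): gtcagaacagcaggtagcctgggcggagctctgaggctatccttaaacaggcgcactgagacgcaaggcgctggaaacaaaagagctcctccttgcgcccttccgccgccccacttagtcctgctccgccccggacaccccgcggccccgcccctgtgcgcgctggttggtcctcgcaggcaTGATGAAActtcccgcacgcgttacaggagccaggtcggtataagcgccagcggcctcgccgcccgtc
CHAC1 (chr15:40953221-40953470, plus strand): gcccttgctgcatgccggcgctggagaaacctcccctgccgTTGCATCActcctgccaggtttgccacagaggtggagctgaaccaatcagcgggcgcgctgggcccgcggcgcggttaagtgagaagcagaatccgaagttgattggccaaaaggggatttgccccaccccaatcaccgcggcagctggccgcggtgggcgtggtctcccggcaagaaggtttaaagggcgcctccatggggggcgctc

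Promoter entries were found for 33 of the 35 genes, as 55 windows of 250 bases before and 50 after a start, and GPT2 and SLC7A11 had none. Each element was searched on both strands, and no 2 matches overlapped in the windows shown. The ER stress element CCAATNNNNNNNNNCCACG, read by ATF6 with NF-Y, lay in windows of 6 genes (XBP1, HSPA5, HSP90B1, CALR, CANX and PDIA6). These were 8 of the 55 windows, against 27 of 35116 windows in the whole table (0.0769%), which includes the windows of these genes. The CANX matches were 1 site seen in overlapping windows. The variant ATTGGNCCACG of this element lay in 2 of the 55 windows, those of SDF2L1 and HERPUD1, against 19 windows in the table (0.0541%). The letters TGATGNAA, the core of the element that ATF4 binds with C/EBP partners, lay in windows of 7 genes (ATF3, CEBPG, CHAC1, ASNS, SLC3A2, SLC1A5 and HERPUD1). These were 7 of the 55 windows, against 1270 windows in the table (3.62%). The XBP1 element TGACGTGG was in 0 of the 55 windows and in 256 windows of the table (0.729%). In HSPA5 the element lay 66 to 48 bases before the start, in ASNS 68 to 61 bases before it, and HERPUD1 held an element of each arm. No element lay in any window of the other genes with promoter entries, whose values are also described below. In the ATF4 arm these were ATF4, ATF5, DDIT3, CEBPB, TRIB3, PPP1R15A, VLDLR, CTH, CBS and SLC7A5. Among the sensors they were EIF2AK3, ERN1 and ATF6, and in the chaperone arm PDIA4, DNAJB9, DNAJC3, EDEM1, SEL1L and SYVN1. A match describes the letters in a window and does not show binding, and a link between elements and responses was not tested.

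Per kilobase of gene, the ER chaperones were the most abundant of the 35 transcripts. In KO Nutlin-3a cells, CALR stood at 485 ± 15.1 RPKM and HSP90B1 at 420 ± 9.79 RPKM, against 455 ± 2.2 RPKM for CALR and 404 ± 3.01 RPKM for HSP90B1 in WT DMSO cells (SD, n = 2). ATF4 was the third of the 35 in both of these groups, at 236 ± 1.55 RPKM in KO Nutlin-3a and 204 ± 0.712 RPKM in WT DMSO cells. The least abundant were CTH, VLDLR and ERN1, at 1.24 to 2.67 RPKM in KO Nutlin-3a and 0.770 to 1.64 RPKM in WT DMSO cells. The plot of levels by library shows all 35 genes.

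**Figure D1:**
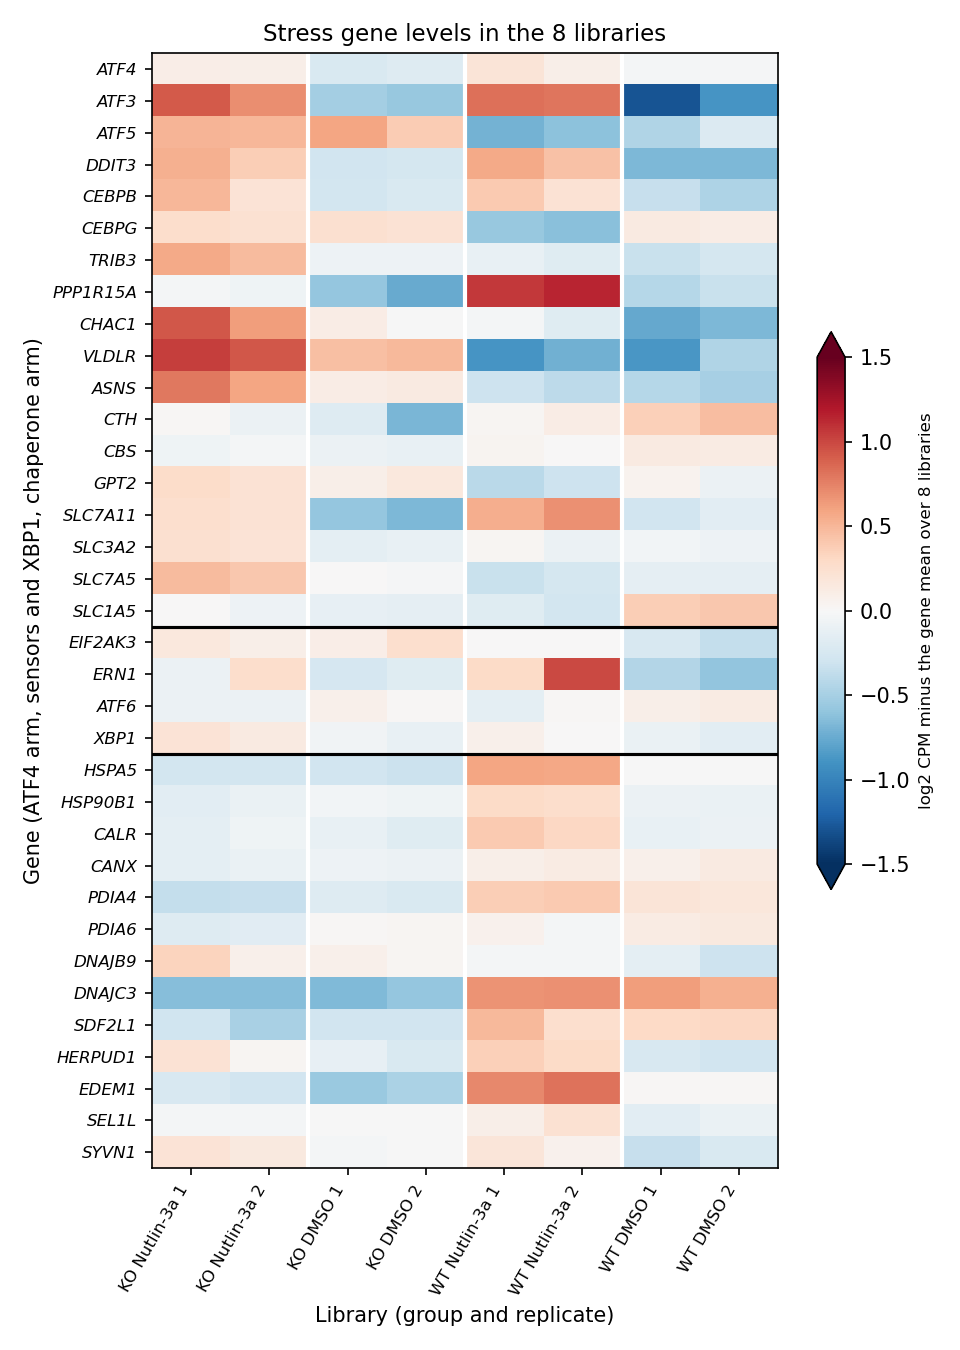
Level of each of the 35 genes (rows) in each of the 8 libraries (columns), as log2 CPM minus the mean of that gene over the 8 libraries, with lines between the ATF4 arm, the sensors with XBP1, and the chaperone arm. HSPA5, EDEM1 and PPP1R15A are highest in the 2 WT Nutlin-3a libraries, while ASNS, TRIB3 and VLDLR are highest in the 2 KO Nutlin-3a libraries.

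With Nutlin-3a, most ATF4 arm genes rose in KO cells and most chaperone arm genes rose in WT cells. In WT cells ATF4 arm genes were called in both directions, at shares near those of all tested genes. In KO cells 16 of the 35 genes rose (18.1% of all tested genes were called higher) and 3 fell (20.6% of all tested genes were called lower), by edgeR's quasi-likelihood test with a Benjamini-Hochberg adjusted p under 0.05. In WT cells 18 rose, with 29.4% of all tested genes called higher, and 8 fell, with 29.2% called lower. In KO cells the ATF4 arm had 12 of 18 genes higher, with 18 of 18 values above 0 (ATF5, not called, was below 0 without KO DMSO replicate 2) and a median log2 fold change of 0.48, and the chaperone arm 3 of 13 higher and 2 lower, with a median of -0.02. In WT cells the ATF4 arm had 7 higher (38.9%) and 6 lower (33.3%), beside 29.4% and 29.2% of all tested genes, with a median of 0.08. The chaperone arm had 8 higher and 1 lower in WT cells, with a median of 0.29. The median over all tested genes was -0.01 in KO and 0.02 in WT cells. Fewer cells of a kind and less RNA per cell cannot be told apart in such bulk libraries. The 3 genes that fell in KO cells were 1 without any 1 of the 4 KO libraries, and the 8 that fell in WT cells were 4 without WT Nutlin-3a replicate 1 or WT DMSO replicate 2. The 6 ATF4 arm genes that fell in WT cells were 3 without WT Nutlin-3a replicate 1, the chaperone arm's 2 in KO cells were 1 without any 1 KO library, and its 1 in WT cells was 0 without any library other than WT Nutlin-3a replicate 1.

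Between genotypes, most ATF4 arm genes were higher and most chaperone arm genes lower in KO cells under Nutlin-3a. In KO against WT cells under Nutlin-3a, 12 of the 35 genes were higher, beside 32.7% of all tested genes, and 14 were lower, beside 30.4%. Under DMSO 13 were higher, beside 31.4% of all tested genes, and 13 were lower, beside 30.1%. For the 35 genes together these counts are near the background, and the arms had medians of opposite sign. Under Nutlin-3a the ATF4 arm had 10 of 18 genes higher and 2 lower in KO cells, with a median of 0.22, and the chaperone arm 1 of 13 higher and 11 lower, with a median of -0.40. Under DMSO the ATF4 arm had 9 higher and 6 lower, with a median of 0.13, and the chaperone arm 3 higher and 7 lower, with a median of -0.12. The chaperone arm's 3 genes higher under DMSO were 1 without KO DMSO replicate 1 or WT DMSO replicate 2, and its 1 higher under Nutlin-3a was 0 without KO Nutlin-3a replicate 1. The median over all tested genes was 0.02 under Nutlin-3a and 0.01 under DMSO.

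The difference of the responses, KO minus WT, was tested directly in the same fit. It was positive and called for 8 of the 35 genes, beside 14.2% of all tested genes, and negative and called for 11, beside 13.4%. In the ATF4 arm 8 of 18 were positive and 3 negative, with a median difference of 0.34. In the chaperone arm 7 of 13 were negative and called, 13 of 13 were below 0 (DNAJB9, not called, was above 0 without KO Nutlin-3a replicate 2 or WT DMSO replicate 2), and the median difference was -0.28, against a median of 0.00 over all tested genes. With the 3 libraries out, DNAJB9 and SDF2L1 were above 0 in that difference, at 0.16 (adjusted p = 0.384) and 0.03 (adjusted p = 0.894). These comparisons share libraries, so they are not independent of each other. The forest plot of responses sets each gene's KO and WT values side by side.

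**Figure D2:**
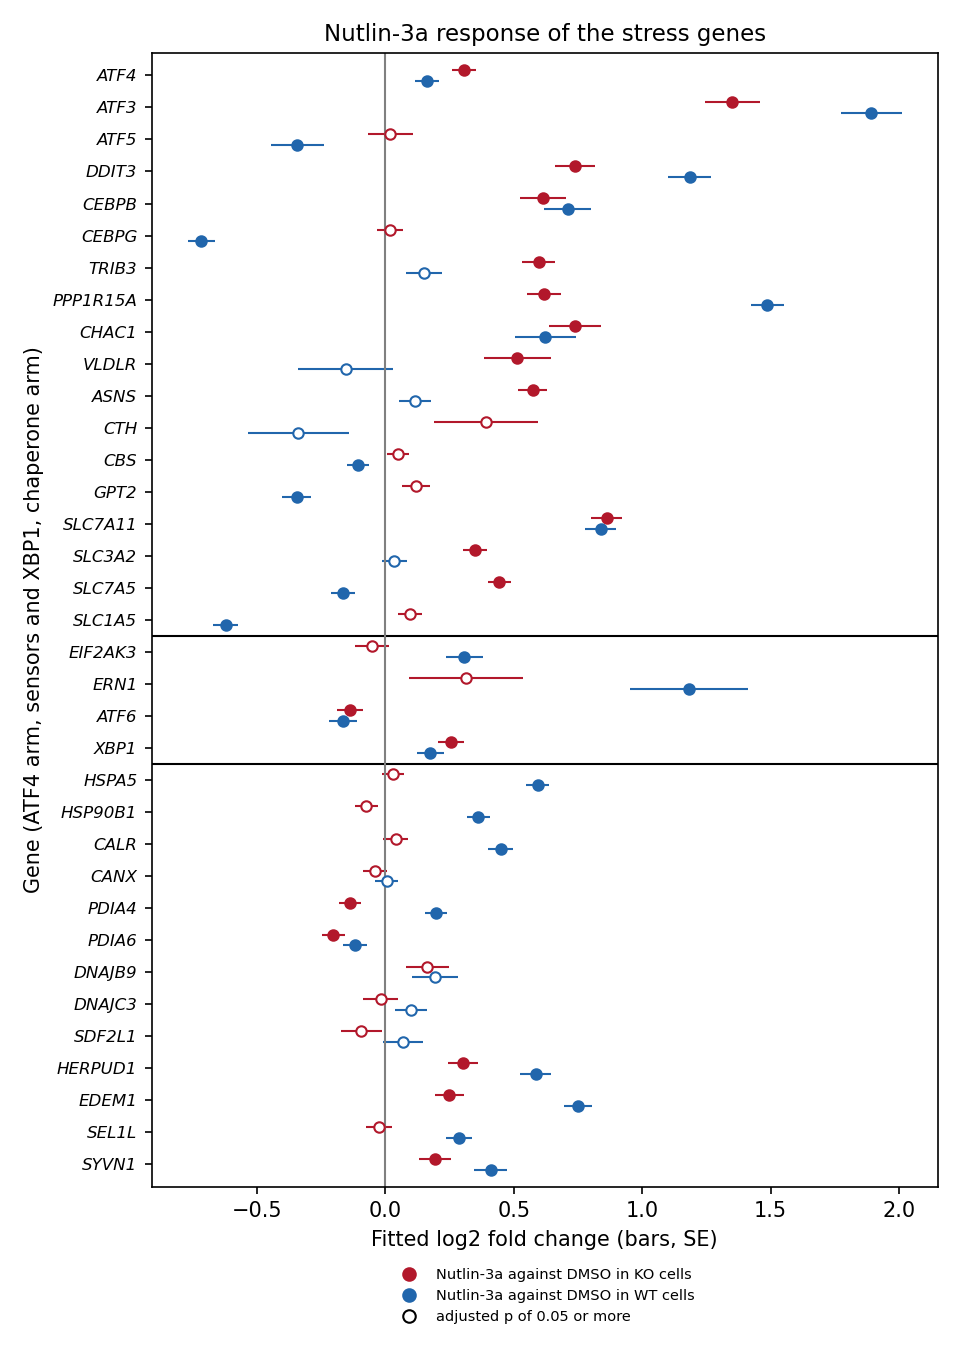
Fitted log2 fold change of Nutlin-3a against DMSO for each of the 35 genes (points, with bars of 1 SE) in KO cells (red, upper point) and WT cells (blue, lower point), filled where the adjusted p is under 0.05. ASNS, TRIB3 and SLC7A5 lie to the right of 0 in KO cells, and HSPA5, HSP90B1 and CALR lie near 0 in KO cells and at 0.59, 0.36 and 0.45 in WT cells.

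The transcription factors of the ATF4 arm did not move as one. ATF4, the central factor, had 461 and 460 CPM in KO Nutlin-3a, 370 and 376 CPM in KO DMSO, 494 and 458 CPM in WT Nutlin-3a and 424 and 428 CPM in WT DMSO cells. Its KO DMSO libraries were the lowest, and the groups did not overlap except under Nutlin-3a. ATF4 RNA rose with Nutlin-3a by 0.30 in KO cells (SE 0.05, adjusted p = 4.16e-05) and by 0.16 in WT cells (SE 0.05, adjusted p = 0.0068). The WT call did not hold without WT DMSO replicate 1 (adjusted p = 0.0580). The difference of these responses was 0.14 (SE 0.07, adjusted p = 0.122), and was called without WT Nutlin-3a replicate 1 (0.19, adjusted p = 0.00543). ATF4 is controlled largely by translation, which these RNA libraries do not show. KO against WT, ATF4 was lower under DMSO (-0.19, SE 0.05, adjusted p = 0.00183). Under Nutlin-3a the value was -0.05 (SE 0.05, adjusted p = 0.393), and it passed the test with WT Nutlin-3a replicate 2 left out (-0.11, adjusted p = 0.0253).

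ATF3 and DDIT3, which encode a stress-induced repressor and the pro-apoptotic factor CHOP, rose in both genotypes, from a higher DMSO level in KO cells. ATF3 had 25.3 and 21.8 CPM in KO Nutlin-3a, 9.45 and 9.05 CPM in KO DMSO, 23.7 and 23.4 CPM in WT Nutlin-3a and 5.45 and 7.27 CPM in WT DMSO cells. DDIT3 had 30.5 and 27.3 CPM in KO Nutlin-3a, 17.2 and 17.5 CPM in KO DMSO, 31.1 and 28.6 CPM in WT Nutlin-3a and 13.1 and 13.1 CPM in WT DMSO cells. For both genes the Nutlin-3a libraries of the genotypes overlapped, and the KO DMSO libraries lay above the WT DMSO libraries. ATF3 rose by 1.35 in KO (SE 0.11, adjusted p = 8.87e-09) and by 1.89 in WT cells (SE 0.12, adjusted p = 1.1e-10), and DDIT3 by 0.74 in KO (SE 0.08, adjusted p = 4.39e-07) and 1.18 in WT cells (SE 0.08, adjusted p = 6.39e-10). KO against WT, ATF3 was higher under DMSO by 0.54 (SE 0.13, adjusted p = 0.00124; 0.35 without WT DMSO replicate 1) and DDIT3 by 0.40 (SE 0.09, adjusted p = 0.000615), and under Nutlin-3a the values were 0.00 for ATF3 (SE 0.10, adjusted p = 0.993) and -0.05 for DDIT3 (SE 0.08, adjusted p = 0.612). The response was smaller in KO cells for DDIT3 (difference -0.45, SE 0.12, adjusted p = 0.0074) and for ATF3 (-0.54, SE 0.16, adjusted p = 0.018). The ATF3 difference was not called without KO Nutlin-3a replicate 2 (-0.44, adjusted p = 0.0842), KO DMSO replicate 1 (-0.51, adjusted p = 0.0750) or WT DMSO replicate 1 (-0.35, adjusted p = 0.160), nor that of DDIT3 with the 3 libraries out (-0.32, adjusted p = 0.0661).

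CEBPG, a dimer partner of ATF4, fell in WT cells with a response that differed from that in KO cells by the direct test, and ATF5, another factor that eIF2 phosphorylation favours, was higher in KO cells under both treatments. CEBPG had 75.3 and 73.7 CPM in KO Nutlin-3a, 74.3 and 72.9 CPM in KO DMSO, 42.3 and 40.8 CPM in WT Nutlin-3a and 68.8 and 67.8 CPM in WT DMSO cells. The WT Nutlin-3a libraries were the lowest, the WT DMSO libraries lay between them and the KO libraries, and the KO groups overlapped. CEBPG fell in WT cells by 0.72 on the log2 scale (log2 fold change -0.72, SE 0.05, adjusted p = 1.03e-09), against 0.02 in KO cells (SE 0.05, adjusted p = 0.803). The difference of its responses was 0.74 (SE 0.07, adjusted p = 5.83e-07), and KO cells were higher under Nutlin-3a by 0.84 (SE 0.05, adjusted p = 7.62e-11). Under DMSO the CEBPG value was 0.11 (SE 0.05, adjusted p = 0.0721), and it passed with either WT Nutlin-3a library left out, a fit without that group's spread. ATF5 had 26.0 and 25.8 CPM in KO Nutlin-3a, 27.4 and 23.8 CPM in KO DMSO, 11.1 and 11.9 CPM in WT Nutlin-3a and 13.4 and 15.8 CPM in WT DMSO cells. Every KO library was above every WT library for ATF5, by 1.17 under Nutlin-3a (SE 0.10, adjusted p = 5.37e-09) and by 0.81 under DMSO (SE 0.09, adjusted p = 5.62e-07). ATF5 fell with Nutlin-3a in WT cells (-0.34, SE 0.10, adjusted p = 0.00894). It did not pass with WT Nutlin-3a replicate 1 (-0.26, adjusted p = 0.0618) or WT DMSO replicate 2 (-0.22, adjusted p = 0.152) left out. Its difference of responses was 0.36 (SE 0.14, adjusted p = 0.0558) and passed with KO DMSO replicate 1, WT Nutlin-3a replicate 2 or WT DMSO replicate 1 left out (adjusted p = 0.0383, 0.0303 and 0.0291). CEBPB, a C/EBP factor of stress and inflammation, had 49.5 and 40.5 CPM in KO Nutlin-3a, 28.9 and 30.0 CPM in KO DMSO, 46.1 and 40.8 CPM in WT Nutlin-3a and 27.6 and 25.5 CPM in WT DMSO cells. CEBPB rose in both genotypes, by 0.61 in KO (SE 0.09) and 0.71 in WT cells (SE 0.09), with a difference of -0.10 (SE 0.13, adjusted p = 0.626). KO against WT, CEBPB stood at 0.05 under Nutlin-3a (SE 0.09, adjusted p = 0.621; 0.27 with the 3 libraries out) and at 0.15 under DMSO (SE 0.09, adjusted p = 0.183).

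Among the feedback and effector genes, PPP1R15A responded less and TRIB3 more in KO than in WT cells. PPP1R15A (GADD34), the subunit that directs a phosphatase to eIF2 and so ends the stress signal, had 43.1 and 42.1 CPM in KO Nutlin-3a, 29.6 and 26.0 CPM in KO DMSO, 92.2 and 97.0 CPM in WT Nutlin-3a and 32.7 and 34.8 CPM in WT DMSO cells. Its WT Nutlin-3a libraries stood far above all others. It rose by 0.62 in KO (SE 0.07, adjusted p = 5.33e-07) and by 1.49 in WT cells (SE 0.06, adjusted p = 4.62e-13), a difference of -0.87 (SE 0.09, adjusted p = 1.62e-06). KO against WT, PPP1R15A was lower under Nutlin-3a by 1.15 on the log2 scale (-1.15, SE 0.06, adjusted p = 1.11e-11). Under DMSO the value was -0.28 (SE 0.07, adjusted p = 0.00175), not called without KO DMSO replicate 2 (-0.19, adjusted p = 0.0583). TRIB3, a pseudokinase that ATF4 and CHOP induce and that restrains both, had 45.2 and 42.1 CPM in KO Nutlin-3a, 28.8 and 28.9 CPM in KO DMSO, 28 and 26.7 CPM in WT Nutlin-3a and 24.1 and 25.4 CPM in WT DMSO cells. The KO Nutlin-3a libraries stood above all others. TRIB3 rose in KO cells by 0.60 (SE 0.06, adjusted p = 5.13e-07), with 0.15 in WT cells (SE 0.07, adjusted p = 0.077). The WT value passed without WT Nutlin-3a replicate 2 (0.21, adjusted p = 0.0288). Its difference of responses was 0.45 (SE 0.10, adjusted p = 0.00165). KO against WT, TRIB3 was higher under Nutlin-3a (0.67, SE 0.07, adjusted p = 5.7e-08) and under DMSO (0.22, SE 0.07, adjusted p = 0.00897). The DMSO call did not hold without WT DMSO replicate 1 (adjusted p = 0.0846).

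CHAC1 and VLDLR were higher in KO cells under both treatments. CHAC1, which breaks down glutathione, had 26.5 and 21.5 CPM in KO Nutlin-3a, 15.0 and 13.9 CPM in KO DMSO, 13.6 and 12.3 CPM in WT Nutlin-3a and 8.15 and 8.71 CPM in WT DMSO cells. It rose by 0.74 in KO (SE 0.10, adjusted p = 9.7e-06) and 0.62 in WT cells (SE 0.12, adjusted p = 0.000187), with a difference of 0.12 (SE 0.16, adjusted p = 0.63). KO cells were higher by 0.89 under Nutlin-3a (SE 0.10) and 0.78 under DMSO (SE 0.11). The KO DMSO libraries of CHAC1 thus lay above the WT Nutlin-3a libraries. VLDLR, a lipoprotein receptor and ATF4 target, had 9.26 and 8.59 CPM in KO Nutlin-3a, 6.18 and 6.33 CPM in KO DMSO, 2.44 and 2.73 CPM in WT Nutlin-3a and 2.46 and 3.30 CPM in WT DMSO cells. KO against WT, VLDLR was higher by 1.79 under Nutlin-3a (SE 0.16, adjusted p = 9.89e-09) and by 1.12 under DMSO (SE 0.16, adjusted p = 5.88e-06). It rose in KO cells by 0.51 (SE 0.13, adjusted p = 0.00434), though not without KO Nutlin-3a replicate 1 (0.46, adjusted p = 0.0577). The VLDLR value was -0.15 in WT cells (SE 0.18, adjusted p = 0.495). Its difference of responses, 0.67 (SE 0.23, adjusted p = 0.0354), was not called without any 1 of the 4 KO libraries, WT Nutlin-3a replicate 1 or WT DMSO replicate 2, at 0.44 to 0.72 with adjusted p from 0.0548 to 0.241.

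Of the amino acid enzymes, ASNS and GPT2 were higher in KO cells under Nutlin-3a. ASNS, which makes asparagine and is a standard ATF4 target, had 176 and 154 CPM in KO Nutlin-3a, 110 and 112 CPM in KO DMSO, 82.3 and 77.6 CPM in WT Nutlin-3a and 75.4 and 72.2 CPM in WT DMSO cells. Its 4 groups did not overlap, in that order. ASNS rose in KO cells by 0.57 (SE 0.06, adjusted p = 1.95e-07), with 0.12 in WT cells (SE 0.06, adjusted p = 0.113; 0.18 and adjusted p = 0.0170 without WT Nutlin-3a replicate 2). The difference was 0.46 (SE 0.08, adjusted p = 0.000447). KO against WT, ASNS was higher by 1.04 under Nutlin-3a (SE 0.06, adjusted p = 2.33e-11) and by 0.58 under DMSO (SE 0.06, adjusted p = 1.07e-07). GPT2, a mitochondrial alanine aminotransferase, had 127 and 121 CPM in KO Nutlin-3a, 111 and 117 CPM in KO DMSO, 79.1 and 84.6 CPM in WT Nutlin-3a and 109 and 98.8 CPM in WT DMSO cells. Its WT Nutlin-3a libraries were the lowest. GPT2 fell in WT cells by 0.34 on the log2 scale (log2 fold change -0.34, SE 0.06, adjusted p = 3.75e-05), with 0.12 in KO cells (SE 0.05, adjusted p = 0.0883). The KO value passed with either WT Nutlin-3a library left out, a fit without that group's spread. The difference was 0.47 (SE 0.08, adjusted p = 0.000207). KO against WT, GPT2 was higher under Nutlin-3a by 0.60 (SE 0.06, adjusted p = 2.66e-08). Under DMSO the value was 0.13 (SE 0.05, adjusted p = 0.0425). It was 0.07 to 0.17 and not called without any 1 of the 4 KO libraries or WT DMSO replicate 2 (adjusted p from 0.0572 to 0.417), and 0.21 without WT DMSO replicate 1.

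CBS and CTH, which make cysteine from homocysteine by way of cystathionine, were lower in KO cells under DMSO. CTH had 2.66 and 2.46 CPM in KO Nutlin-3a, 2.29 and 1.63 CPM in KO DMSO, 2.67 and 2.84 CPM in WT Nutlin-3a and 3.35 and 3.62 CPM in WT DMSO cells. The KO DMSO libraries were the lowest and the WT DMSO libraries the highest, at log2 fold change -0.83 (SE 0.20, adjusted p = 0.00145). The CTH response was 0.39 in KO (SE 0.20, adjusted p = 0.142) and -0.34 in WT cells (SE 0.20, adjusted p = 0.151), with a difference of 0.73 (SE 0.28, adjusted p = 0.0636) that was called without KO DMSO replicate 1 (0.99, adjusted p = 0.0350). CBS ranged from 182 to 192 CPM in KO and from 197 to 216 CPM in WT libraries, with -0.23 under DMSO (SE 0.04, adjusted p = 0.000169) and -0.07 under Nutlin-3a (SE 0.04, adjusted p = 0.163). In WT cells CBS stood at -0.11 with Nutlin-3a (SE 0.04, adjusted p = 0.0424), not called without any 1 of the 8 libraries (adjusted p from 0.0582 to 0.205). The CBS difference of responses was 0.16 (SE 0.06, adjusted p = 0.0652) and was called without WT Nutlin-3a replicate 1 (0.17, adjusted p = 0.0211).

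Of the amino acid transporters, SLC7A5, SLC1A5 and SLC3A2 had a more positive response in KO than in WT cells. SLC7A5 (LAT1), the importer of large neutral amino acids, had 175 and 167 CPM in KO Nutlin-3a, 126 and 125 CPM in KO DMSO, 100 and 105 CPM in WT Nutlin-3a and 115 and 115 CPM in WT DMSO cells. It rose in KO cells by 0.44 (SE 0.05, adjusted p = 2.88e-07) and fell in WT cells (log2 fold change -0.17, SE 0.05, adjusted p = 0.00593). The fall did not hold without WT Nutlin-3a replicate 1 (-0.11, adjusted p = 0.0625). The difference of 0.61 (SE 0.07, adjusted p = 1.89e-06) left KO cells higher under Nutlin-3a by 0.74 (SE 0.05, adjusted p = 1.12e-10). Under DMSO the SLC7A5 value was 0.13 (SE 0.05, adjusted p = 0.0253), not called without any 1 of the 4 DMSO libraries (adjusted p from 0.0810 to 0.132). SLC1A5 (ASCT2), a glutamine importer, had 305 and 287 CPM in KO Nutlin-3a, 278 and 275 CPM in KO DMSO, 267 and 249 CPM in WT Nutlin-3a and 392 and 402 CPM in WT DMSO cells. The WT DMSO libraries stood above all others. SLC1A5 fell in WT cells by 0.62 on the log2 scale (log2 fold change -0.62, SE 0.05, adjusted p = 2.44e-09), with 0.10 in KO cells (SE 0.05, adjusted p = 0.128). The KO value passed with either WT Nutlin-3a library left out, a fit without that group's spread. The difference was 0.72 (SE 0.07, adjusted p = 4.2e-07). KO against WT, SLC1A5 was lower under DMSO (-0.52, SE 0.05, adjusted p = 2.84e-08) and higher under Nutlin-3a (0.20, SE 0.05, adjusted p = 0.00169).

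SLC7A11, the cystine importer that feeds glutathione synthesis, rose by nearly the same amount in both genotypes. It had 76.4 and 74.1 CPM in KO Nutlin-3a, 42.9 and 40.0 CPM in KO DMSO, 93.5 and 103 CPM in WT Nutlin-3a and 52.4 and 57.3 CPM in WT DMSO cells. SLC7A11 rose by 0.86 in KO (SE 0.06) and 0.84 in WT cells (SE 0.06), with a difference of 0.02 (SE 0.09, adjusted p = 0.882). KO against WT, it was lower under Nutlin-3a (-0.38, SE 0.06, adjusted p = 1.71e-05) and DMSO (-0.40, SE 0.06, adjusted p = 2.17e-05), so its 4 groups were apart. SLC3A2, the heavy chain that carries both SLC7A11 and SLC7A5 to the membrane, ranged from 166 to 216 CPM and was highest in the KO Nutlin-3a libraries. It rose in KO cells by 0.35 (SE 0.05, adjusted p = 1.01e-05), with 0.04 in WT cells (SE 0.05, adjusted p = 0.556; 0.12 and adjusted p = 0.0218 without WT Nutlin-3a replicate 2). The difference was 0.31 (SE 0.07, adjusted p = 0.00189). KO against WT, SLC3A2 was higher under Nutlin-3a (0.25, SE 0.05, adjusted p = 0.000192), with -0.07 under DMSO (SE 0.05, adjusted p = 0.241).

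**Figure D3:**
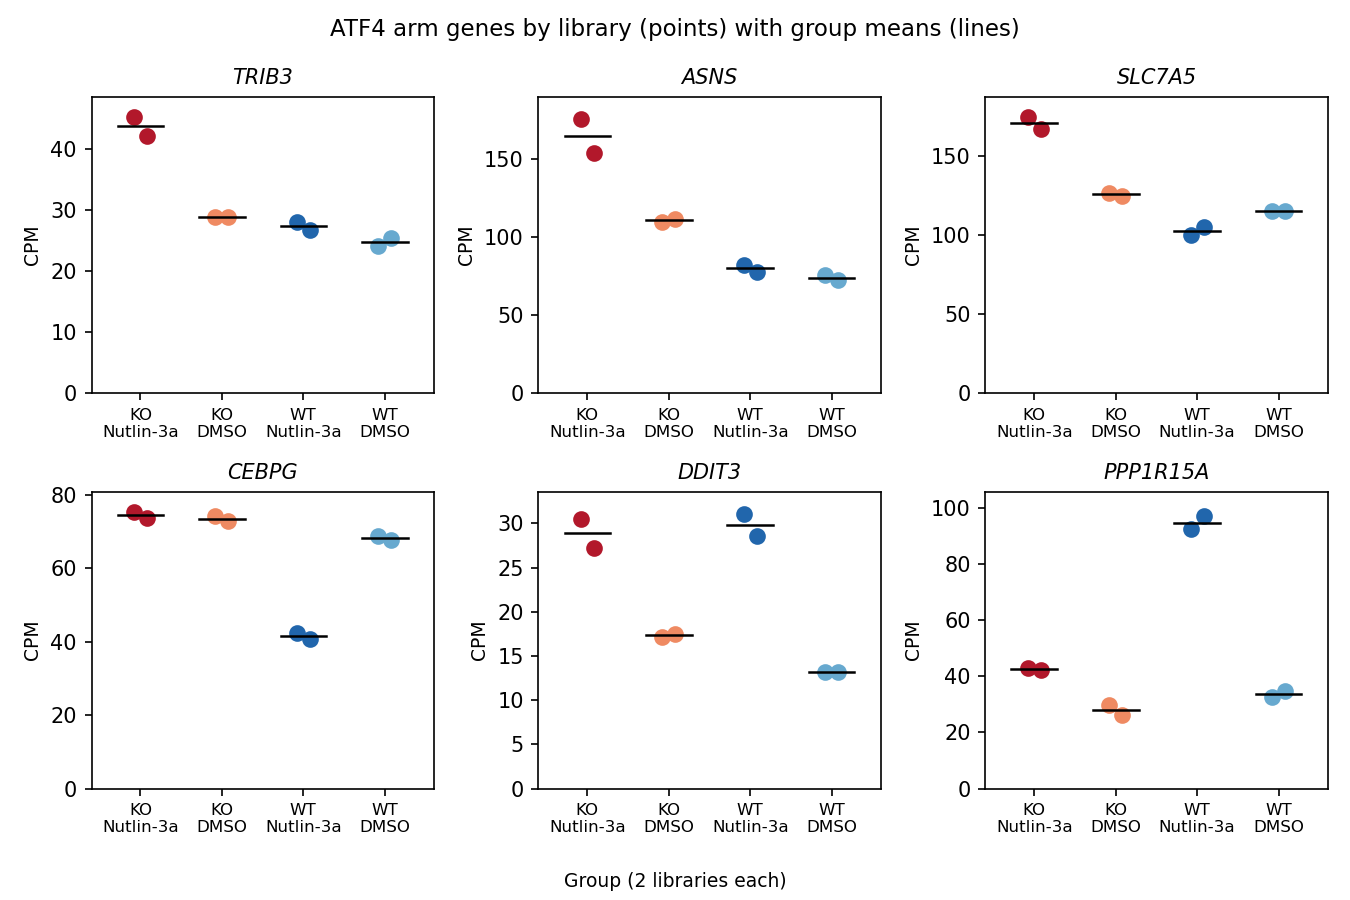
CPM of 6 ATF4 arm genes in the 4 groups, each point a library and each line the mean of 2 libraries, with axes that start at 0. TRIB3, ASNS and SLC7A5 are highest in KO Nutlin-3a cells, CEBPG is low in WT Nutlin-3a cells, DDIT3 reaches about the same level in both genotypes with Nutlin-3a, and PPP1R15A is highest in WT Nutlin-3a cells, at 92.2 and 97.0 CPM.

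The sensors and XBP1 changed less, apart from ERN1. EIF2AK3 (PERK) had 36.8 and 34.9 CPM in KO Nutlin-3a, 35.3 and 39.1 CPM in KO DMSO, 33.0 and 33.1 CPM in WT Nutlin-3a and 27.8 and 25.6 CPM in WT DMSO cells, the WT DMSO libraries being the lowest. It rose in WT cells by 0.31 (SE 0.07, adjusted p = 0.00132), with -0.05 in KO cells (SE 0.07, adjusted p = 0.589). KO against WT, it was higher under DMSO by 0.48 (SE 0.07, adjusted p = 1.08e-05), with 0.12 under Nutlin-3a (SE 0.07, adjusted p = 0.143). The EIF2AK3 difference of responses was -0.36 (SE 0.10, adjusted p = 0.0112), not called without KO Nutlin-3a replicate 2, KO DMSO replicate 2 or WT DMSO replicate 2 (-0.32, -0.28 and -0.31, adjusted p = 0.0558, 0.0898 and 0.0661). ERN1 (IRE1) had 9.04 and 11.5 CPM in KO Nutlin-3a, 8.08 and 8.43 CPM in KO DMSO, 11.7 and 19.1 CPM in WT Nutlin-3a and 7.10 and 6.39 CPM in WT DMSO cells. The 2 WT Nutlin-3a libraries differed 1.63-fold, the largest gap between replicates among the 35 genes in any group. ERN1 rose in WT cells by 1.18 (SE 0.23, adjusted p = 0.00203), with 0.31 in KO cells (SE 0.22, adjusted p = 0.314). The KO value passed with either WT Nutlin-3a library left out, a fit without that group's spread. The ERN1 difference of responses was -0.87 (SE 0.32, adjusted p = 0.0811). It was -1.19 without WT Nutlin-3a replicate 1 and -0.49 without WT Nutlin-3a replicate 2. KO against WT under Nutlin-3a, ERN1 stood at -0.58 (SE 0.21, adjusted p = 0.0421), a call that held without KO Nutlin-3a replicate 2 or WT Nutlin-3a replicate 1 (-0.90) and was lost without each of the other 6 libraries, at -0.58 to -0.20 (adjusted p from 0.0527 to 0.222). Under DMSO the ERN1 value was 0.29 (SE 0.24, adjusted p = 0.327), and passed with either WT Nutlin-3a library left out, again without that group's spread.

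ATF6 and XBP1 showed small shifts in both genotypes. XBP1, the transcription factor that IRE1 activates by splicing, had 108 and 102 CPM in KO Nutlin-3a, 89.9 and 86.3 CPM in KO DMSO, 99.0 and 94.2 CPM in WT Nutlin-3a and 87.1 and 84.0 CPM in WT DMSO cells. It rose by 0.26 in KO (SE 0.05, adjusted p = 0.000443) and by 0.18 in WT cells (SE 0.05, adjusted p = 0.00646). The WT call did not hold without WT DMSO replicate 2 (adjusted p = 0.0708). The difference was 0.08 (SE 0.07, adjusted p = 0.444). Gene counts do not separate spliced from unspliced XBP1. The value for KO against WT under Nutlin-3a was 0.12 (SE 0.05, adjusted p = 0.0411), not called without KO Nutlin-3a replicate 1, WT Nutlin-3a replicate 2 or any 1 of the 4 DMSO libraries (adjusted p from 0.0562 to 0.273), and under DMSO it was 0.04 (SE 0.05, adjusted p = 0.489). ATF6, whose cleaved protein drives chaperone genes, had 102 and 102 CPM in KO Nutlin-3a, 114 and 111 CPM in KO DMSO, 98.7 and 110 CPM in WT Nutlin-3a and 116 and 118 CPM in WT DMSO cells. Its values with Nutlin-3a were -0.14 in KO (SE 0.05, adjusted p = 0.0453) and -0.16 in WT cells (SE 0.05, adjusted p = 0.0126). The ATF6 call in KO cells was lost without any 1 of the 4 KO or 2 WT DMSO libraries (adjusted p from 0.0666 to 0.258). The call in WT cells did not hold with WT Nutlin-3a replicate 1 left out (-0.06, adjusted p = 0.313), nor with WT DMSO replicate 2 left out (-0.15, adjusted p = 0.0960). KO against WT under Nutlin-3a, ATF6 stood at -0.03 (SE 0.05, adjusted p = 0.653), and at -0.12 and called without WT Nutlin-3a replicate 1 (adjusted p = 0.0401).

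Of the 9 folding genes, HSPA5, HSP90B1, CALR and PDIA4 rose in WT cells, and for these 4 the response was lower in KO cells by the direct test. HSPA5 (BiP), the main ER chaperone of the HSP70 family, had 620 and 621 CPM in KO Nutlin-3a, 613 and 602 CPM in KO DMSO, 1128 and 1126 CPM in WT Nutlin-3a and 745 and 750 CPM in WT DMSO cells. The WT Nutlin-3a libraries stood above all others and the KO libraries below both WT groups. HSPA5 rose in WT cells by 0.59 (SE 0.04, adjusted p = 1.15e-09), with 0.03 in KO cells (SE 0.04, adjusted p = 0.636). The difference was -0.56 (SE 0.06, adjusted p = 2.3e-06). KO against WT, HSPA5 was lower under Nutlin-3a (-0.86, SE 0.04, adjusted p = 4.79e-12) and under DMSO (-0.30, SE 0.04, adjusted p = 1.06e-05). The HSP90 family member HSP90B1 (GRP94) and the lectin chaperone CALR followed the same order of responses, from DMSO levels nearer to each other. HSP90B1 was at 1135 to 1182 CPM in KO Nutlin-3a, 1210 to 1228 CPM in KO DMSO, 1519 to 1542 CPM in WT Nutlin-3a and 1187 to 1193 CPM in WT DMSO cells. CALR was at 869 to 915 CPM in KO Nutlin-3a, 845 to 890 CPM in KO DMSO, 1191 to 1255 CPM in WT Nutlin-3a and 891 to 901 CPM in WT DMSO cells. For both genes the WT Nutlin-3a libraries were the highest. The other HSP90B1 groups lay close together without overlapping, and for CALR the KO Nutlin-3a libraries overlapped both DMSO groups. The genes rose in WT cells by 0.36 (SE 0.05, adjusted p = 1.45e-06) for HSP90B1 and 0.45 (SE 0.05, adjusted p = 2.57e-07) for CALR, with -0.07 (SE 0.05, adjusted p = 0.213) and 0.04 (SE 0.05, adjusted p = 0.56) in KO cells. The differences were -0.44 (SE 0.06, adjusted p = 5.29e-05) for HSP90B1 and -0.41 (SE 0.07, adjusted p = 0.000222) for CALR. KO against WT, HSP90B1 stood at -0.40 under Nutlin-3a (SE 0.05, adjusted p = 3.58e-07) and 0.04 under DMSO (SE 0.05, adjusted p = 0.518), and CALR at -0.45 under Nutlin-3a (SE 0.05, adjusted p = 1.94e-07) and -0.05 under DMSO (SE 0.05, adjusted p = 0.431). With the 3 libraries out, the HSP90B1 value in KO cells was -0.09.

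CANX, the membrane-bound relative of CALR, whose promoter window shown above holds the same ER stress element, had no called response in either genotype. It ranged from 862 to 905 CPM in KO and from 1009 to 1049 CPM in WT libraries. Its log2 fold changes were -0.04 in KO (SE 0.05, adjusted p = 0.527) and 0.01 in WT cells (SE 0.05, adjusted p = 0.933). With the 3 libraries out the WT value was 0.08. The CANX difference of responses was -0.05 (SE 0.06, adjusted p = 0.652), and -0.13 with the 3 libraries out. CANX was lower in KO cells under Nutlin-3a (-0.23, SE 0.05, adjusted p = 0.000218) and under DMSO (-0.19, SE 0.05, adjusted p = 0.00158). The disulfide isomerase gene PDIA4 had 232 and 235 CPM in KO Nutlin-3a, 260 and 254 CPM in KO DMSO, 384 and 392 CPM in WT Nutlin-3a and 342 and 335 CPM in WT DMSO cells. Its 4 groups were apart, and the distance between genotypes was -0.73 under Nutlin-3a (SE 0.04, adjusted p = 4.68e-11) and -0.40 under DMSO (SE 0.04, adjusted p = 2.76e-07). PDIA4 rose in WT cells by 0.20 (SE 0.04, adjusted p = 0.000708). In KO cells it stood at -0.14 (SE 0.04, adjusted p = 0.0178), not called without any 1 of the 4 KO libraries (adjusted p from 0.0686 to 0.152). The difference was -0.34 (SE 0.06, adjusted p = 0.00047). PDIA6, a second disulfide isomerase, ranged from 343 to 436 CPM and fell in KO cells (-0.20, SE 0.05, adjusted p = 0.00174). In WT cells PDIA6 stood at -0.12 (SE 0.05, adjusted p = 0.0339). That value held only without WT Nutlin-3a replicate 1 among the 8 single omissions, and was -0.05 without WT Nutlin-3a replicate 2 (adjusted p = 0.314). Its difference of responses was -0.08 (SE 0.06, adjusted p = 0.378). KO against WT, PDIA6 was lower under Nutlin-3a (-0.20, SE 0.05, adjusted p = 0.00099), and its -0.12 under DMSO (SE 0.05, adjusted p = 0.0348) was not called without any 1 KO or WT DMSO library (adjusted p from 0.0518 to 0.183).

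The co-chaperones DNAJC3 and SDF2L1 differed by genotype and not detectably by treatment. DNAJC3 (p58IPK), which also inhibits eIF2 kinases, had 20.1 and 20.2 CPM in KO Nutlin-3a, 19.8 and 21 CPM in KO DMSO, 49.9 and 50.1 CPM in WT Nutlin-3a and 48.1 and 45.2 CPM in WT DMSO cells. Every KO library was under every WT library, at -1.31 under Nutlin-3a (SE 0.07, adjusted p = 3.04e-12) and -1.19 under DMSO (SE 0.06, adjusted p = 1.3e-11), the largest distance of any of the 13 chaperone arm genes in both treatments. The DNAJC3 responses were -0.02 in KO (SE 0.07, adjusted p = 0.865) and 0.10 in WT cells (SE 0.06, adjusted p = 0.171). SDF2L1, a partner of ER DNAJ proteins, had 27.6 and 24.3 CPM in KO Nutlin-3a, 27.7 and 27.8 CPM in KO DMSO, 47.4 and 40.4 CPM in WT Nutlin-3a and 41.7 and 42.1 CPM in WT DMSO cells. It was lower in KO cells, at log2 fold changes of -0.76 under Nutlin-3a (SE 0.08, adjusted p = 1.15e-07) and -0.60 under DMSO (SE 0.08, adjusted p = 2.59e-06). Its response was -0.09 in KO (SE 0.08, adjusted p = 0.383) and 0.07 in WT cells (SE 0.08, adjusted p = 0.459; 0.20 and adjusted p = 0.0182 without WT Nutlin-3a replicate 2), and the difference of -0.16 (SE 0.11, adjusted p = 0.304) was also called without that library (-0.28, adjusted p = 0.0283). DNAJB9 (ERdj4), which represses IRE1, went the other way and ranged from 24.5 to 30.4 CPM in KO and from 19.5 to 23.6 CPM in WT libraries. KO against WT, it stood at 0.24 under Nutlin-3a (SE 0.09, adjusted p = 0.0212) and 0.27 under DMSO (SE 0.09, adjusted p = 0.0123). The DNAJB9 call under Nutlin-3a was lost without KO Nutlin-3a replicate 1 (0.10, adjusted p = 0.379) and the value was 0.36 without KO Nutlin-3a replicate 2. Under DMSO the call was lost without KO DMSO replicate 1 (adjusted p = 0.0788) or WT DMSO replicate 2 (0.19, adjusted p = 0.144). The DNAJB9 response was 0.16 in KO cells (SE 0.08, adjusted p = 0.139). The KO response was 0.29 without KO Nutlin-3a replicate 2, and 0.18 with a WT Nutlin-3a library left out, a fit without that group's spread. In WT cells the DNAJB9 response was 0.19 (SE 0.09, adjusted p = 0.0741), and it passed with either KO Nutlin-3a library left out, a fit without that group's spread.

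All 4 degradation genes rose in WT cells, and 3 of the 4 in KO cells. EDEM1, which pulls misfolded glycoproteins out of the folding cycle, had 50.7 and 49.3 CPM in KO Nutlin-3a, 41.0 and 43.1 CPM in KO DMSO, 98.8 and 106 CPM in WT Nutlin-3a and 60.9 and 60.8 CPM in WT DMSO cells. Its 4 groups were apart. EDEM1 rose by 0.25 in KO (SE 0.06, adjusted p = 0.00149) and by 0.75 in WT cells (SE 0.05, adjusted p = 6.87e-10), a difference of -0.50 (SE 0.08, adjusted p = 9.06e-05). It was lower in KO cells, at -1.03 under Nutlin-3a (SE 0.05, adjusted p = 6.28e-12) and -0.53 under DMSO (SE 0.06, adjusted p = 1.46e-07). HERPUD1, a scaffold of the degradation complex whose window holds elements of both arms, had 106 and 92.2 CPM in KO Nutlin-3a, 83 and 77.4 CPM in KO DMSO, 116 and 111 CPM in WT Nutlin-3a and 76.6 and 74.3 CPM in WT DMSO cells. It rose by 0.30 in KO (SE 0.06, adjusted p = 0.00055; 0.20 without KO Nutlin-3a replicate 1) and by 0.59 in WT cells (SE 0.06, adjusted p = 1.63e-07). The HERPUD1 difference, -0.28 (SE 0.09, adjusted p = 0.0195), was not called without KO Nutlin-3a replicate 2 (-0.19, adjusted p = 0.130), KO DMSO replicate 1 (-0.23, adjusted p = 0.121) or WT DMSO replicate 2 (-0.26, adjusted p = 0.0858). KO against WT under Nutlin-3a, HERPUD1 stood at -0.20 (SE 0.06, adjusted p = 0.00852), at -0.10 and not called without KO Nutlin-3a replicate 2 (adjusted p = 0.194) and at -0.30 without KO Nutlin-3a replicate 1. Under DMSO it stood at 0.09 (SE 0.06, adjusted p = 0.226).

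SEL1L and SYVN1, the adaptor and the ubiquitin ligase (HRD1) of the same complex, had small changes. SEL1L ranged from 110 to 112 CPM in KO, 119 to 132 CPM in WT Nutlin-3a and 101 to 105 CPM in WT DMSO libraries. SEL1L rose in WT cells by 0.29 (SE 0.05, adjusted p = 9.86e-05), with -0.02 in KO cells (SE 0.05, adjusted p = 0.748). The difference was -0.31 (SE 0.07, adjusted p = 0.00336). KO against WT, SEL1L stood at -0.19 under Nutlin-3a (SE 0.05, adjusted p = 0.00366; -0.12 without WT Nutlin-3a replicate 2). Its 0.12 under DMSO (SE 0.05, adjusted p = 0.0438) was not called without any 1 KO or WT DMSO library (adjusted p from 0.0638 to 0.254). SYVN1 ranged from 33.9 to 49.8 CPM and was lowest in the WT DMSO libraries. It rose in WT cells by 0.41 (SE 0.06, adjusted p = 2.03e-05) and in KO cells by 0.19 (SE 0.06, adjusted p = 0.0165). The KO call did not hold without KO Nutlin-3a replicate 1 (adjusted p = 0.138), KO DMSO replicate 1 (adjusted p = 0.104) or KO DMSO replicate 2 (adjusted p = 0.0787). The SYVN1 difference was -0.22 (SE 0.09, adjusted p = 0.0766), and was called without WT Nutlin-3a replicate 2 (-0.28, adjusted p = 0.0142). KO against WT, SYVN1 was higher under DMSO (0.27, SE 0.06, adjusted p = 0.00116), with 0.05 under Nutlin-3a (SE 0.06, adjusted p = 0.462).

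**Figure D4:**
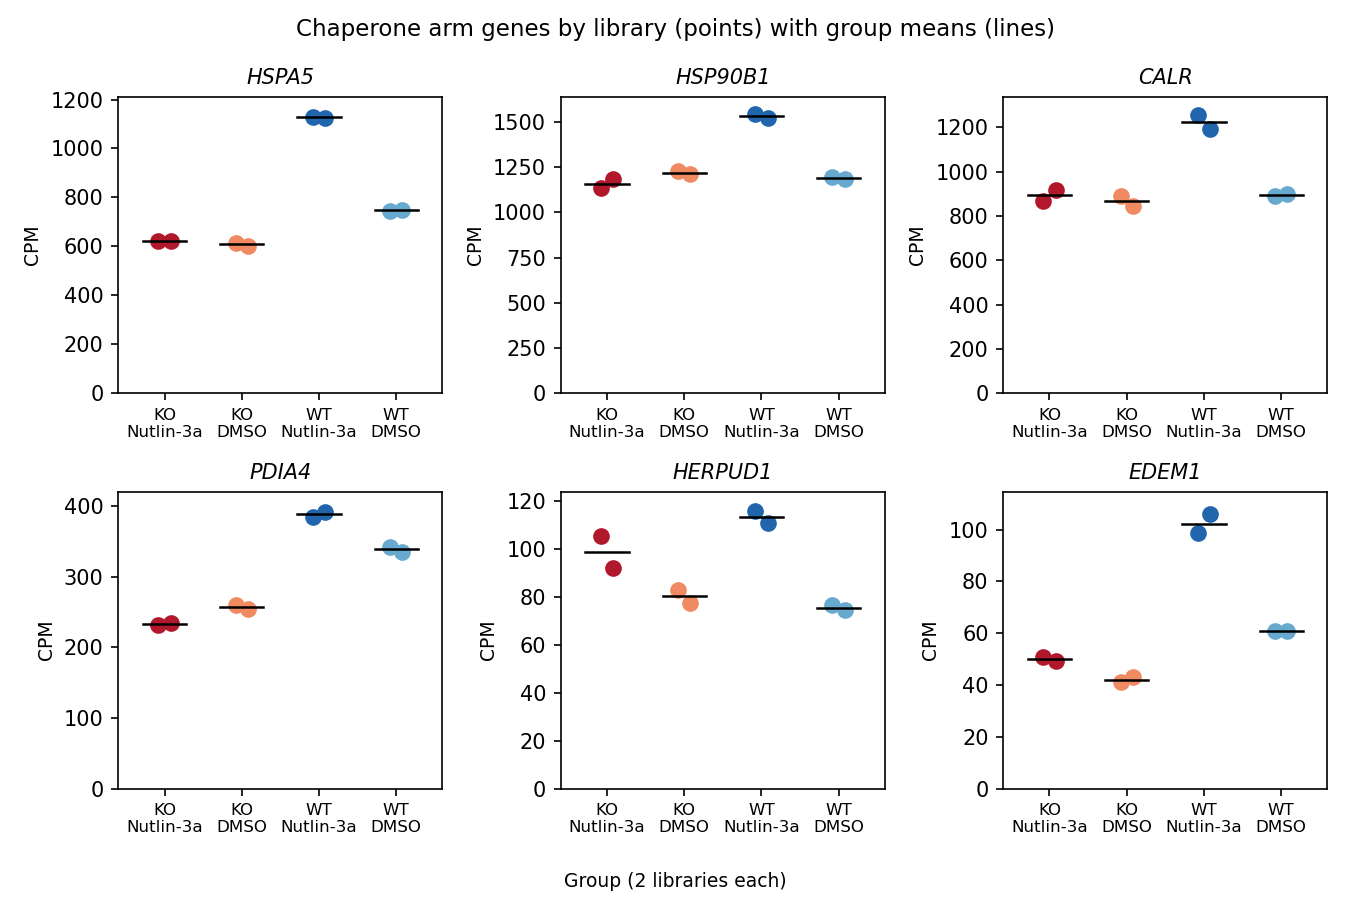
CPM of 6 chaperone arm genes in the 4 groups, each point a library and each line the mean of 2 libraries, with axes that start at 0. In all 6 panels the WT Nutlin-3a libraries are the highest, and for HSPA5 the KO Nutlin-3a libraries, at 620 and 621 CPM, lie beside the KO DMSO libraries, at 613 and 602 CPM.

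**Figure D5:**
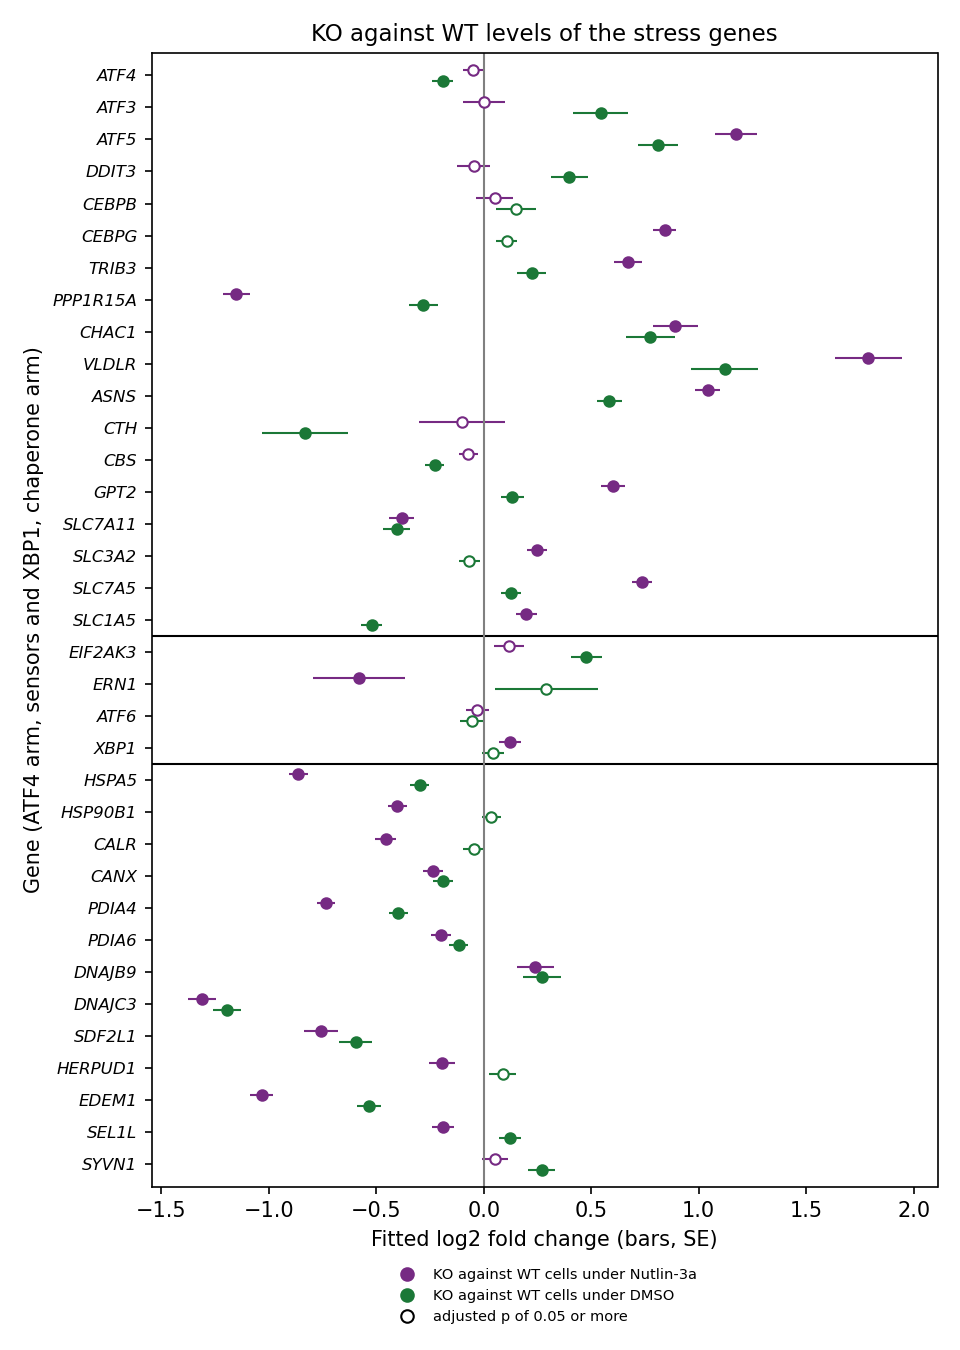
Fitted log2 fold change of KO against WT cells for each of the 35 genes (points, with bars of 1 SE) under Nutlin-3a (purple, upper point) and under DMSO (green, lower point), filled where the adjusted p is under 0.05. VLDLR and ATF5 lie farthest to the right under Nutlin-3a, at 1.79 and 1.17, and DNAJC3, PPP1R15A and EDEM1 farthest to the left, at -1.31, -1.15 and -1.03.

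Genes outside the 35 that belong to the same or related pathways were counted from 7 lists. Over these lists 14.3% to 52% of the tested genes rose and 7.14% to 42.1% fell in KO cells, beside 18.1% and 20.6% of all tested genes. In WT cells 20% to 40% rose and 23.8% to 63.2% fell, beside 29.4% and 29.2%. KO against WT under Nutlin-3a, 5.26% to 64% were higher and 16% to 65% lower, beside 32.7% and 30.4%. Under DMSO 5% to 47.6% were higher and 23.9% to 78.9% lower, beside 31.4% and 30.1%. A list's count near these shares is not a result about the list. Of 25 tested among 27 other ATF4 and amino acid response genes, 13 rose and 3 fell in KO cells, and 10 rose and 14 fell in WT cells. The difference of responses was positive for 13 and negative for 6, beside 14.2% and 13.4% of all tested genes. The median difference was 0.31. PHGDH, the first enzyme of serine synthesis, fell in WT cells (-1.20, SE 0.05), and its difference was 1.08 (SE 0.07). GDF15, a secreted stress cytokine that p53 also induces, rose in KO cells by 4.89 (SE 0.08), and NUPR1, a stress-induced chromatin protein, rose in WT cells by 5.89 (SE 0.14), with a difference of -2.95 (SE 0.21). NUPR1 was already higher in KO cells under DMSO, averaging 7.13 CPM in KO DMSO and 0.675 CPM in WT DMSO cells (log2 fold change 3.39, SE 0.18). KO against WT under Nutlin-3a, 16 were higher and 4 lower, among them the glycine transporter gene SLC6A9 (1.56, SE 0.16) and the secreted factor gene STC2 (-1.64, SE 0.06). Under DMSO 9 were higher and 9 lower, near the 31.4% and 30.1% of all tested genes. The median over the 25 genes was 0.44 under Nutlin-3a and -0.04 under DMSO.

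Of 20 cytosolic aminoacyl-tRNA synthetase genes, many of them ATF4 targets, 8 rose and 2 fell in KO cells, and 4 rose and 9 fell in WT cells. The 2 that fell in KO cells were 1 without KO Nutlin-3a replicate 1 or 2 and 0 without KO DMSO replicate 2. SARS, the seryl-tRNA synthetase gene, rose in both genotypes, by 0.76 in KO (SE 0.05) and 0.89 in WT cells (SE 0.05). Under Nutlin-3a 7 were higher and 7 lower in KO than in WT cells, with AARS, the alanyl-tRNA synthetase gene, at 0.42 (SE 0.05). Under DMSO 3 were higher and 11 lower, with a median of -0.15, against 0.01 under Nutlin-3a. The difference of responses was called positive for 7 of the 20 and negative for 0, beside 14.2% and 13.4% of all tested genes. Its median over the 20 genes was 0.11. Of 14 genes for eIF2 kinases, its phosphatase and the exchange factor eIF2B, 2 were higher and 9 lower under Nutlin-3a in KO against WT cells, as for the amino acid sensor kinase gene EIF2AK4 (GCN2; -0.75, SE 0.06). The 2 were 1 without any library other than WT DMSO replicate 1. Under DMSO 1 of the 14 was higher and 8 lower in KO cells, with a median of -0.26, against -0.17 under Nutlin-3a. In WT cells 4 of these 14 rose, EIF2AK4 by 0.62 (SE 0.06), and 5 fell, which were 2 without WT DMSO replicate 1, and in KO cells 3 rose and 1 fell. The 3 were 0 without KO Nutlin-3a replicate 2 or KO DMSO replicate 1, 1 without KO DMSO replicate 2 and 6 without either WT Nutlin-3a library, and the 1 was 2 without either WT Nutlin-3a library.

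The other ER genes moved both ways. Of 46 other ER folding and export genes, 7 rose and 19 fell in KO cells (11 fell without KO DMSO replicate 2), and 17 rose and 20 fell in WT cells (10 rose without WT DMSO replicate 1). The translocon gene SEC61A1 rose in both, by 0.56 in KO (SE 0.05) and 0.94 in WT cells (SE 0.05). KO against WT under Nutlin-3a, 10 were higher and 16 lower, with MANF, the gene of a secreted ER stress factor, at -0.86 (SE 0.06). The difference of responses was positive for 5 and negative for 8 of the 46, beside 14.2% and 13.4% of all tested genes, with a median of -0.07. The 5 were 3 without KO DMSO replicate 2 or WT DMSO replicate 1. The 8 were 4 or 5 without KO Nutlin-3a replicate 1 or any 1 DMSO library, and 13 without WT Nutlin-3a replicate 2. The lowest difference was that of the HSP70-related chaperone gene HYOU1 (-0.50, SE 0.07) and the highest that of the ER retrieval receptor gene KDELR3 (0.70, SE 0.19, adjusted p = 0.00942), not called without KO DMSO replicate 2 or WT DMSO replicate 1 (adjusted p = 0.0629 and 0.0634). Of 21 tested among 22 other ER degradation genes, 3 rose and 4 fell in KO cells (5 rose without WT Nutlin-3a replicate 1 or 2), 5 rose and 5 fell in WT cells, and 7 were higher and 7 lower under Nutlin-3a in KO against WT cells, all near or under the shares of all tested genes. Under DMSO 10 of the 21 were higher and 7 lower in KO against WT cells, beside 31.4% and 30.1% of all tested genes. The median was 0.12 under DMSO and -0.05 under Nutlin-3a. EDEM3, a relative of EDEM1, was lower in KO cells under Nutlin-3a (-1.19, SE 0.05) and under DMSO (-1.16, SE 0.05).

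Stress genes of other compartments were read beside these. Of 19 cytosolic heat shock genes, 4 rose and 8 fell in KO cells, 5 rose and 12 fell in WT cells, and 1 was higher and 11 lower under Nutlin-3a in KO against WT cells. The 8 were 5 without KO Nutlin-3a replicate 1 or either KO DMSO library, and the 1 was 2 without WT Nutlin-3a replicate 1. Under DMSO 1 was higher and 15 lower in KO against WT cells, with a median of -0.35, against -0.20 under Nutlin-3a. The difference of responses was called positive for 7 of the 19 and negative for 0, beside 14.2% and 13.4% of all tested genes. Its median over the 19 heat shock genes was 0.15. HSPA4L rose in both genotypes, by 2.08 in KO (SE 0.11) and 2.16 in WT cells (SE 0.10). Of 20 tested among 22 NRF2 target genes, which answer oxidative stress, 9 rose and 3 fell in KO cells, 8 rose and 5 fell in WT cells, and 5 were higher and 13 lower under Nutlin-3a in KO against WT cells. The 3 were 1 without KO Nutlin-3a replicate 1 or KO DMSO replicate 1, and the 5 that fell in WT cells were 3 without WT Nutlin-3a replicate 2. Under DMSO 1 was higher and 13 lower in KO against WT cells, with a median of -0.37, against -0.24 under Nutlin-3a. HMOX1, the heme oxygenase gene, rose by 1.36 in KO (SE 0.13) and 0.75 in WT cells (SE 0.14).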

How the data were processed

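The counts are whole reads per gene as deposited, and the RPKM values are those the authors deposited beside them. Per the labels' protocols, poly(A) RNA was made into strand-specific libraries. Per the submitters' processing notes, reads were handled with HTSeq 0.8.0, TopHat2 2.1.1 and Bowtie2 2.2.9.0, with SAMtools 1.5, Picard 2.9.4, FastQC 0.11.5 and bcl2fastq also named, on GRCh37. The sources used here give neither the annotation nor the strand setting. Genes passing edgeR's expression filter (15879 of 25369) were fitted with edgeR 4.0.16 in R 4.3.3, by TMM scaling, 4 group means over 8 libraries (4 residual degrees of freedom), the robust quasi-likelihood test and Benjamini-Hochberg adjustment over all tested genes at 0.05. SE is the log2 fold change over the square root of F, and CPM uses TMM-scaled totals. The fit was run on simulated counts given the same spread in all 4 groups. That run cannot speak for the unequal spread between replicates in these data. Of 21186 genes with reads, all gave a whole gene length within 0.001 bases from counts and RPKM.

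The members and lists were chosen with earlier results of these data known. Given value by value were members called with an absolute log2 fold change of at least 0.58, and ATF4, ATF6, XBP1, ERN1, EIF2AK3 and HSPA5, while the other members have ranges. From each of the 7 other pathway lists, per comparison, the called genes with the largest rise and largest fall could be named, at a mean log2 CPM of at least 1 and with replicates that did not overlap between groups. There were 19 alternatives, among them DESeq2 1.42.0, limma 3.58.1 on log2(RPKM + 0.1) and log2(RPKM + 1), and leaving out each library.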

Additional observations from a re-analysis of the deposited data

Results flagged for a closer look

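For 19 of the 35 genes, edgeR's test of the difference between the Nutlin-3a response in KO and in WT cells passed the adjusted threshold of 0.05. By the same test 14.2% of all tested genes had a positive and 13.4% a negative called difference, so such a difference is not particular to these genes. The differences given are on the log2 scale, KO minus WT. In the ATF4 arm the difference was positive for CEBPG at 0.74, SLC1A5 at 0.72, VLDLR at 0.67, SLC7A5 at 0.61, GPT2 at 0.47, ASNS at 0.46, TRIB3 at 0.45 and SLC3A2 at 0.31. It was negative for PPP1R15A at -0.87, ATF3 at -0.54 and DDIT3 at -0.45. Among the sensors it was negative for EIF2AK3 at -0.36. In the chaperone arm it was negative for HSPA5 at -0.56, EDEM1 at -0.50, HSP90B1 at -0.44, CALR at -0.41, PDIA4 at -0.34, SEL1L at -0.31 and HERPUD1 at -0.28. The values for ATF3, VLDLR, EIF2AK3 and HERPUD1 were not called without certain single libraries, as given with each gene.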

How the results depend on the processing

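For the 35 genes and 5 comparisons, 175 results were recomputed under 19 alternatives where they applied, 3290 values in all. Of these 3039 stayed on the same side of the threshold, 177 lost a call and 74 gained one, and no called value changed sign. Values called in neither the reported nor the alternative setting changed sign 67 times, over 24 results. Of 116 called results 87 were called in the same direction under every alternative. The number of genes that fell in KO cells, 3, was 1 with upper-quartile factors, under each of the 3 limma settings and at a threshold of 0.01. The number that fell in WT cells, 8, was 5 with 3 libraries left out together and 5 at 0.01. The number with a negative difference of responses, 11, was 7 under limma with no low-value filter.

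Leaving out single libraries gave 14 to 20 genes higher and 1 to 3 lower in KO cells, 17 to 22 higher and 4 to 6 lower in WT cells, 10 to 12 higher and 13 to 15 lower in KO against WT cells under Nutlin-3a, 9 to 15 higher and 11 to 13 lower under DMSO, and 7 to 9 positive and 8 to 14 negative differences of responses. Where 1 library was left in a group, it was assumed to vary like the other groups. Replicate numbers were not used as pairs in the reported fit. Replicate differences of 2 groups correlated across 13662 genes at -0.06 to 0.13, which cannot show whether samples were handled in pairs. With a replicate block 16 genes rose and 3 fell in KO cells, 19 and 7 in WT cells, 12 were higher and 14 lower in KO against WT cells under Nutlin-3a, 13 and 13 under DMSO, and 8 differences of responses were positive and 12 negative. With 2 libraries per group, small fold changes near the threshold could go either way, and CTH, VLDLR and ERN1 rest on the fewest reads per length.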
